A study of Mus musculus with 16 samples.

Results

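The response of *Nlrx1*-/- astrocytes to lipopolysaccharide (LPS) and interferon gamma (IFNγ) is described here from 8 of the 16 libraries of the series, namely the 4 LPS+IFNγ libraries and the 4 vehicle libraries of the 4 knockout litters. The libraries were taken by their labels, with earlier results of these data known. Astrocytes were selected with beads against the astrocyte surface antigen ACSA2 from pup brains, given as postnatal day 6 in the labels and the methods and as younger in the results text of the study. They were grown for about 10 days without serum and with heparin-binding EGF. Both groups carried the genotype *Nlrx1*-/-, which removes a mitochondrial NOD-like receptor. The comparison litters in the series were C57BL6J (WT), and the methods of the study give the knockout mice the same background. One culture of each litter received LPS at 500 ng/mL with IFNγ at 10 ng/mL for 24 h, and the other received vehicle, given as water in the labels and the methods and as phosphate-buffered saline in a figure legend of the study, so each litter gave 1 library per condition. How many pups a culture came from is not given in the sources used here. The 4 WT litters, treated the same way, entered the fit of the spread and were used only where a difference between the genotypes is given.

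LPS is sensed by Toll-like receptor 4 with its partners CD14 and MD-2, and the adaptors MyD88 and TRIF carry the signal to NF-κB and to interferon regulatory factors. IFNγ binds the receptor chains IFNGR1 and IFNGR2, and the kinases JAK1 and JAK2 then phosphorylate STAT proteins, which bind the gamma-activated sequence (GAS). Complexes of STAT proteins with IRF9, and the IRF proteins themselves, bind the interferon-stimulated response element (ISRE). Astrocytes are known to answer such signals with chemokines, antigen presentation genes and interferon-inducible GTPases, and to change the genes they use for glutamate uptake, water and potassium handling.

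The 8 libraries held 30988012 to 40405898 read pairs assigned to transcripts, and 16066 genes passed the filter on low counts. *Nlrx1* itself gave 131 to 312 reads in the knockout vehicle libraries and 76 to 161 after stimulation, at 1.91 to 4.09 and 1.02 to 2.19 TPM (the share of all transcripts, corrected for their length), below the 7.98 to 12.4 TPM of the 8 WT libraries. Which exons the knockout lacks is not stated, so reads can come from the rest of the gene. The remaining *Nlrx1* signal fell by 0.60 on the log2 scale in stimulated knockout cultures (SE 0.14, adjusted p = 0.00482 from edgeR), a call that was lost without the litter terms. Of the microglia and macrophage markers *Aif1*, *Cx3cr1*, *Tmem119*, *Csf1r*, *Itgam*, *Ptprc*, *Trem2*, *Fcrls* and *Tyrobp*, 9 of a list of 12, none reached a mean of 0.1 TPM, and *Aif1* was at 0 in all 8 libraries. The astrocyte markers *Aldh1l1*, *Slc1a3* and *Sox9* were present in every library, at means of 543, 1180 and 164 TPM in vehicle. Oligodendrocyte lineage markers were present too, with a sum over 12 genes of 2900 to 3390 TPM in vehicle and 1710 to 2400 TPM after stimulation, of which *Olig1* made up most. The cultures were thus rich in astrocyte RNA, nearly without microglial RNA, and held RNA of the oligodendrocyte lineage.

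LPS+IFNγ changed close to an equal number of genes in each direction. By edgeR's quasi-likelihood test with litters as blocks and a Benjamini-Hochberg adjusted p below 0.05, 4058 genes rose (25.3% of those tested) and 3885 fell (24.2%), so 49.4% of all genes were called. In 5106 genes (31.8%) the 4 vehicle and the 4 stimulated libraries did not overlap. The largest changes were increases. Of the called genes, 205 rose by more than 5 log2 units and 18 fell by as much, and 549 against 304 lay beyond 2 log2 units. The median size of a called change was 0.51 log2 units for increases and 0.62 for decreases. The genes called up took 26.8% to 29.7% of all TPM in vehicle and 40.3% to 44.1% after stimulation. The split of calls rests on the scaling of the libraries. With plain library sizes in place of TMM factors, an alternative added after the data were seen, the median response of all genes moved by -0.16, and 2659 genes rose while 5886 fell. Small increases are therefore increases relative to the TMM scale, and several of the lists for which this matters are named below.

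The promoters of some genes that rose strongly are shown first, with short motifs that the proteins named above can bind. Whether these motifs carried the response was not tested. The 250 bases before the start of the canonical transcript (GENCODE M39 on GRCm39, 5′ to 3′ in the direction of the gene) are given for 5 genes among those named here, chosen after their motifs were seen. *Irf1* and *Irf8* encode IRF transcription factors, *Tgtp2* an immunity-related GTPase nearly identical to *Tgtp1*, with which reads may be split, *Cxcl10* a chemokine for T cells and *Cd274* the checkpoint ligand PD-L1. Capitals mark matches on either strand to GAS (TTCNNNGAA), to the core of the ISRE (GAAA, any pair of bases, GAAA) or to the κB motif of NF-κB.
Irf1 (chr11:53660591-53660840, plus strand): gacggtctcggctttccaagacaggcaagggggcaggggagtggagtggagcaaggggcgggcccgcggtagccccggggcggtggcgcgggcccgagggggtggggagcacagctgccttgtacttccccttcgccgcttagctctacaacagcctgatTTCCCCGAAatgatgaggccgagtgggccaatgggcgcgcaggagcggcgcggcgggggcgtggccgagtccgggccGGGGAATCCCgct
Irf8 (chr8:121462847-121463096, plus strand): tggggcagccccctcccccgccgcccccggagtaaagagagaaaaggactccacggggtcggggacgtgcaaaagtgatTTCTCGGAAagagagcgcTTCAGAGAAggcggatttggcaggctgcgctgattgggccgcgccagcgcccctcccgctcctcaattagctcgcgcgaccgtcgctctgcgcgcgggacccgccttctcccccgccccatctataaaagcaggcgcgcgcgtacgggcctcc
Tgtp2 (chr11:48955032-48955281, minus strand): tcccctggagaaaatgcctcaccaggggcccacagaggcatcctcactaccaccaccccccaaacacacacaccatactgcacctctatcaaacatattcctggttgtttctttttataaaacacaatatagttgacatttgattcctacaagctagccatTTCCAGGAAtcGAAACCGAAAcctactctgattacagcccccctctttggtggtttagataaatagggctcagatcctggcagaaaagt
Cxcl10 (chr5:92496749-92496998, minus strand): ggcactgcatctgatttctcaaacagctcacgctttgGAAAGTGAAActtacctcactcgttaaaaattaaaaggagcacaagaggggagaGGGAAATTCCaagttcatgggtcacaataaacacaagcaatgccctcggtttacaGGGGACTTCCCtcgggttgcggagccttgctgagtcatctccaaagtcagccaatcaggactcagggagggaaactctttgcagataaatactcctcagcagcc
Cd274 (chr19:29344279-29344528, plus strand): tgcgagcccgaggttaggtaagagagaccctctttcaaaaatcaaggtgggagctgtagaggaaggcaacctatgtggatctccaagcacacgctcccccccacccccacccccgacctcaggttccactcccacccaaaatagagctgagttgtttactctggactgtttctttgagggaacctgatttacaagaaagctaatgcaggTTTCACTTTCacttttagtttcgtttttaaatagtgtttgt
In *Irf1* the GAS match begins at base -90, counted back from the transcript start, and the κB match at base -13. The *Irf8* window holds 2 GAS matches. *Tgtp2* holds a GAS match at base -89 and an ISRE core at base -78. *Cxcl10* has an ISRE core at base -213 with κB matches closer to the start, of which a pair overlaps, and *Cd274* has an ISRE core at base -41. Over the 13764 genes tested that had such a window, 6.36% held a GAS match, 3.10% an ISRE core and 8.76% a κB match. Among the 171 with a window that rose by more than 5 log2 units, the shares were 14.6%, 25.1% and 18.7%. Among the 225 that fell by more than 2 log2 units they were 6.22%, 0.444% and 7.56%, where a single promoter held an ISRE core. A GAS match or an ISRE core stood in 59 of the 171 (34.5%), against 9.16% of all genes with a window. Most of the 171 thus held neither in these bases. Among strong responders named below, the windows of *Cxcl9*, *Gbp2*, *Igtp*, *H2-Ab1*, *Psmb9* and *Serping1* held no match to any of these motifs. The shares count letter matches only, and members of the GTPase and MHC families share promoter sequence.

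The genes with the largest calls among those with at least 10 reads in the lower condition are drawn by library. *Cxcl10* stood at -0.25, 2.54, -0.10 and 1.75 log2 CPM (reads scaled to the size of the library) in the vehicle libraries of litters 1 to 4, and at 10.22, 11.11, 10.27 and 10.86 after stimulation. Every litter thus rose, from levels that differed in vehicle by more than they did afterwards, and the response was 9.37 log2 units (SE 0.28, adjusted p = 1.22e-09), 660-fold. *Gbp2*, a guanylate-binding protein, went from 3.74, 2.75, 4.23 and 3.01 to 12.60, 12.57, 12.73 and 12.34 log2 CPM, and had 4720 TPM on average after stimulation. *Igtp*, an immunity-related GTPase, rose alike in all litters, by 8.54 log2 units (SE 0.10, adjusted p = 1.11e-12) and an SD of 0.10 between the 4 litters. The MHC class II chain *H2-Ab1* rose by 8.80 log2 units, the immunoproteasome subunit *Psmb9* by 7.82, *Cd274* by 7.70, the DNA sensor family gene *Ifi204* by 7.78 and the complement C1 inhibitor *Serping1* by 7.53. In none of the 12 did a vehicle library reach a stimulated one, which their choice required.

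**Figure D1:**
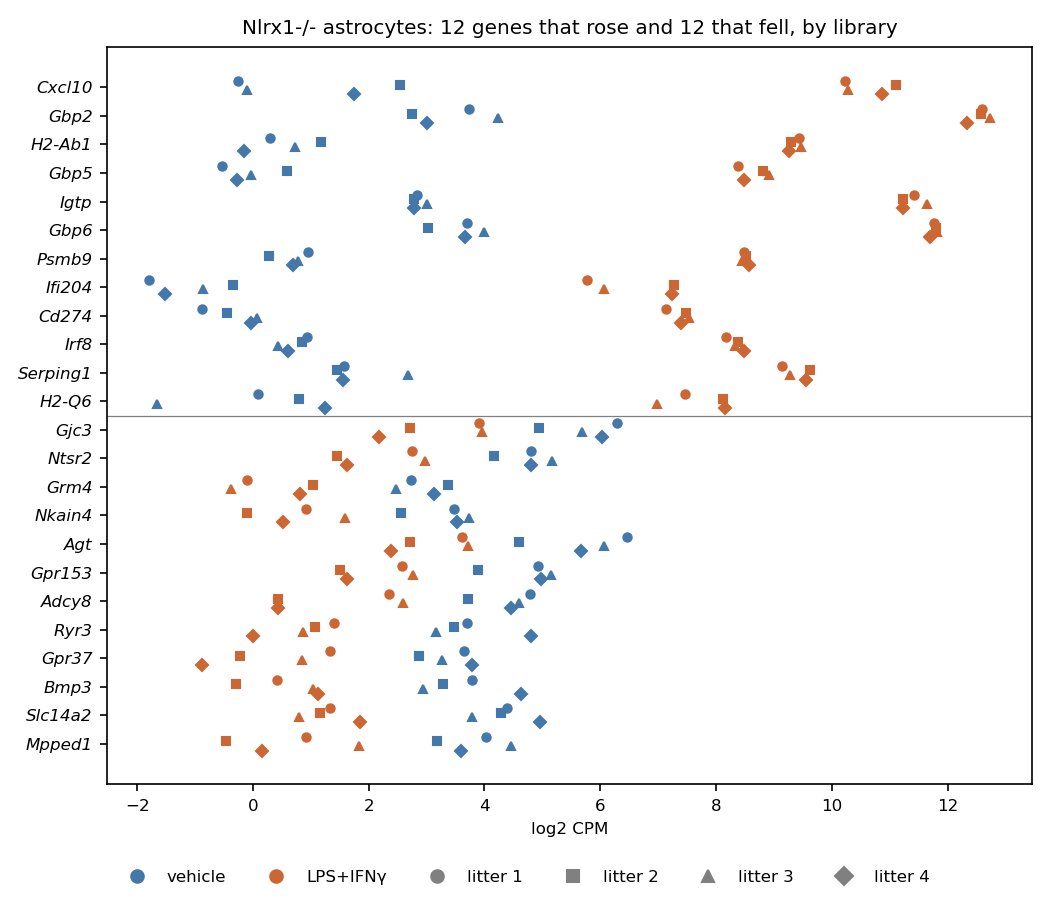
Level of 24 genes in each knockout library, in log2 CPM on the horizontal axis, with vehicle in blue, LPS+IFNγ in orange and litters by symbol. The 12 genes above the line rose and the 12 below fell, without overlap of the conditions, and the increases (7.37 to 9.37 log2 units) were larger than the decreases (2.51 to 3.14).

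The 12 genes with the largest decreases under the same conditions were of mixed function, several with receptor or transport roles in glia. *Mpped1* went from 4.03, 3.18, 4.46 and 3.59 to 0.91, -0.46, 1.83 and 0.16 log2 CPM, which is 8.83-fold lower (SE 0.19 log2 units, adjusted p = 5.20e-07). The urea transporter gene *Slc14a2* moved most alike in the litters, from 4.39, 4.28, 3.79 and 4.96 to 1.33, 1.16, 0.79 and 1.85, with an SD of its response of 0.05. The BMP family ligand *Bmp3*, the orphan receptor *Gpr37*, the calcium channel *Ryr3* and the adenylyl cyclase *Adcy8* were 7.13-fold to 8.39-fold lower. The remaining members were *Gpr153*, *Agt*, which encodes angiotensinogen, *Nkain4*, the glutamate receptor *Grm4*, the neurotensin receptor *Ntsr2* and the connexin *Gjc3*, which were 5.68-fold to 6.09-fold lower.

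Some of the strongest inductions began from almost no reads, so that their ratios are given from pooled reads with counting error only. *Cxcl9*, a T cell chemokine, had 0 reads in the 4 vehicle libraries and 4501, 9519, 5968 and 10687 after stimulation. Against a floor of 3 reads over the vehicle libraries it was at least 11800-fold higher. *Gbp10* had 3 vehicle reads against 245669, a ratio of 94300 with an exact 95% interval of 32300 to 457000. It is nearly identical to *Gbp6*, and Salmon may have split reads between them. *Ifi47* had 5 reads against 78782, and *Cd74*, the invariant chain of MHC class II, had 7 against 69083. The iron-binding protein gene *Lcn2* had 3 reads, all in litter 3, against 15232. *Acod1*, which makes itaconate, had 1 vehicle read and 157 to 236 reads per library after stimulation.

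The receptor chains of IFNγ moved little, while *Tlr4* and many genes further down both pathways rose. In the LPS sensing list, 7 of 14 tested members rose and 2 fell, with a median of 0.43 log2 units. Over all genes tested, 25.3% rose and 24.2% fell. Without TMM 6 rose and 4 fell. *Tlr4* went from 2.57, 2.31, 2.41 and 2.06 to 4.45, 4.87, 4.25 and 4.62 log2 CPM, an increase of 2.21 (SE 0.17, adjusted p = 3.20e-06), yet it stayed low at 6.08 TPM. The adaptor *Myd88* rose by 2.80 and the kinase *Irak2* by 1.35. *Irak4*, the kinase that MyD88 recruits, fell by 0.61 (SE 0.15, adjusted p = 0.00613), and *Ticam2*, which bridges TLR4 to TRIF, fell by 0.92, a call lost in the knockout libraries alone and without litter 2 or 3. *Cd14* rose in every litter, by more in litters 2 and 4 than in litters 1 and 3, and its conditions overlapped. *Ly96*, which encodes MD-2, missed the threshold at 0.89 (SE 0.34, adjusted p = 0.0502).

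**Figure D2:**
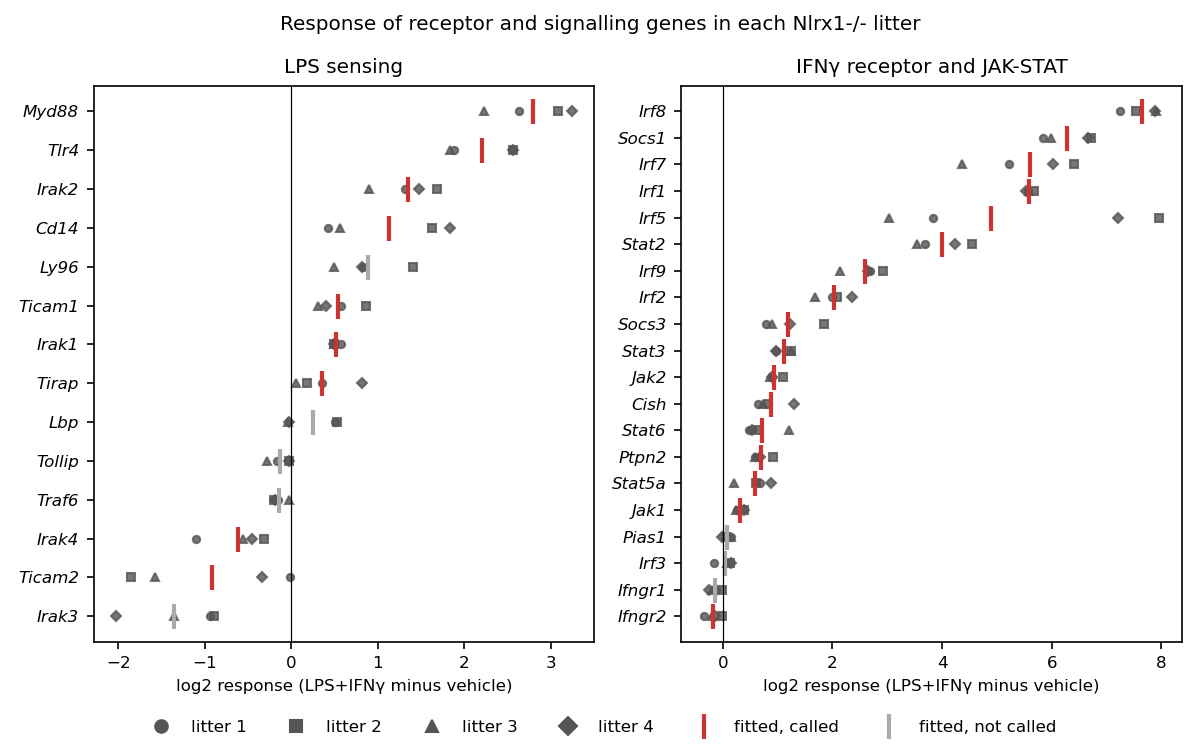
Log2 response of genes in the lists of LPS sensing and of the IFNγ receptor with the JAK-STAT pathway, with 1 symbol for each knockout litter and a bar for the fitted value, red where called. The receptor chains of IFNγ lie near 0, while *Irf8*, *Socs1*, *Irf7* and *Irf1* lie beyond 5 in the fitted value.

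In the IFNγ and JAK-STAT list, 17 of 21 members rose, 1 fell and 3 were not called, with a median of 1.11. The receptor chain *Ifngr1* held at 5.22, 5.29, 5.24 and 5.52 log2 CPM in vehicle and 5.09, 5.28, 5.05 and 5.26 after stimulation, a response of -0.15 (95% interval within 0.3 of 0, adjusted p = 0.0848), and was called down at -0.31 without TMM. *Ifngr2* was called down at -0.18 (adjusted p = 0.0464), a call lost under DESeq2 (adjusted p = 0.0643) and in several other alternatives. The kinases *Jak1* and *Jak2* rose by 0.32 and 0.94. *Irf1* rose by 5.59 with an SD of 0.06 between litters, *Stat2* by 4.00 and *Stat3* by 1.11. *Socs1*, the feedback inhibitor of JAK kinases, rose by 6.27 and was the second largest response of the list after *Irf8*, at 7.64.

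Most NF-κB genes rose. Of 20 members, 17 rose and none fell, with a median of 0.85. The subunit genes *Relb*, *Nfkb2* and *Nfkb1* rose by 1.76, 1.31 and 0.92, and *Rela* by 0.25, a call lost without TMM and without litter 2 or 4. The inhibitor *Nfkbia* went from 4.63, 4.11, 4.33 and 4.48 to 5.42, 6.18, 5.90 and 5.80 log2 CPM (1.44, SE 0.20, adjusted p = 0.000156). *Nfkbiz*, *Tnfaip3* and *Bcl3*, known as feedback regulators, rose by 2.77, 3.59 and 7.36, the last from 4 vehicle reads in all. The inhibitor kinase gene *Ikbkb* was not called, at 0.13 (SE 0.08).

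**Figure D3:**
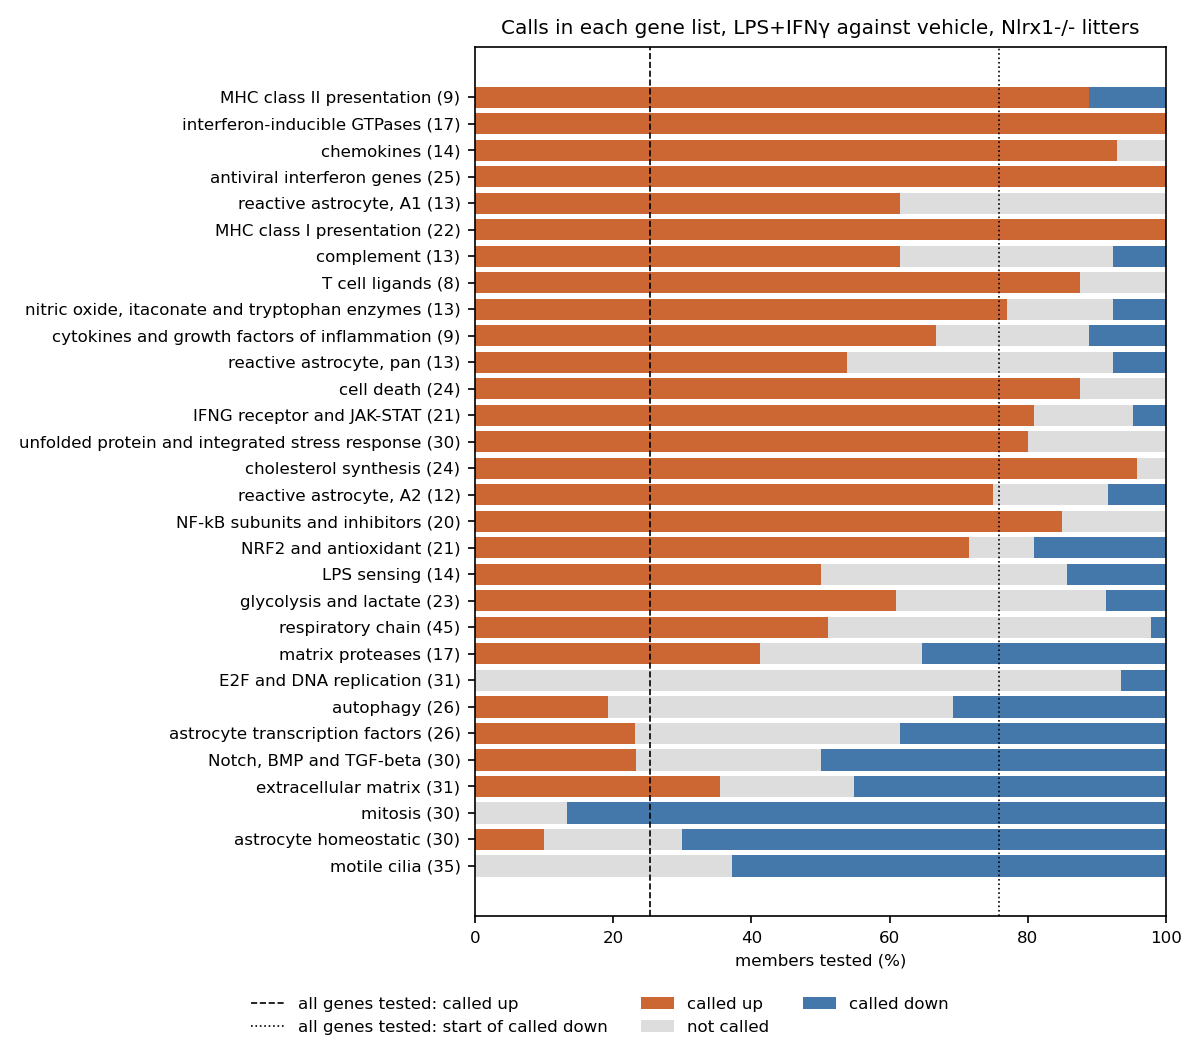
Share of the tested members of each of 30 gene lists that were called up, not called or called down, as percent on the horizontal axis, with the number tested after the name and lists ordered by their median response. The dashed and dotted lines give the shares over all genes tested, 25.3% up and 24.2% down, and lists of interferon targets stand at or near 100% up while mitosis, motile cilia and homeostatic astrocyte genes lean the other way.

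The interferon-inducible GTPases and antiviral genes that could be tested all rose. All 17 interferon-inducible GTPases tested rose, with a median of 9.10 log2 units, and their summed level went from 76.6 to 91.1 TPM in vehicle to 17300 to 20000 TPM. *Gbp7*, the least of them, rose by 5.13. All 25 antiviral genes tested rose, with a median of 5.35. In these lists, genes at or near 0 in vehicle passed the filter through their stimulated libraries, so that their increase followed from being tested. The same holds in the lists of MHC class II, chemokines, cytokines, cell death, and nitric oxide, itaconate and tryptophan enzymes. It holds too for single members of other lists, such as *Lcn2* and *Bcl3*. Such counts and medians describe the genes that passed. The ubiquitin-like modifier *Isg15* went from 0.89, 2.38, 0.69 and 1.54 to 7.27, 8.59, 6.75 and 8.74 log2 CPM, and tetherin, encoded by *Bst2*, rose by 6.37 (SE 0.09). The summed level of the antiviral list ran from 3430 to 8000 TPM in the stimulated libraries, a wider range than that of the GTPases. *Mx1* showed the order of the litters, with 327, 1135, 231 and 1645 reads after stimulation in litters 1 to 4, against 0 to 5 in vehicle. *Irf7*, which amplifies antiviral genes, was likewise lower in litters 1 and 3 (6.20 and 5.69 log2 CPM) than in litters 2 and 4 (8.04 and 8.23). *Ifit2* is counted too low in the gene sums and its value is not given.

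Genes of antigen presentation mostly rose. All 22 tested genes of MHC class I presentation rose, with a median of 4.65, and their sum went from 2190 to 2200 TPM to 24700 to 27200 TPM. β2-microglobulin, the shared light chain encoded by *B2m*, went from 7.01, 6.97, 7.14 and 7.26 to 11.30, 11.49, 11.28 and 11.36 log2 CPM. The class I chain *H2-D1* rose by 4.92 (SE 0.06), the peptide transporter *Tap1* by 6.15 and the class I transactivator *Nlrc5* by 6.48. The chaperones *Calr* and *Pdia3*, which also serve other glycoproteins, rose least, by 1.17 and 1.15. Of 12 class II genes 9 were tested and 8 rose, with a median of 9.25, or 9.19 when *H2-DMb2*, at 0 reads in vehicle, is set to its lower bound. The transactivator *Ciita* had 13 vehicle reads, all in litter 1, and 7526, 4544, 8542 and 5757 reads after stimulation. *Ifi30*, a lysosomal thiol reductase, was called down at -0.74 (adjusted p = 0.0348), with overlapping conditions, and lost the call without litter 2, 3 or 4, with no filter, without the litter terms and in the knockout libraries alone. *H2-Oa*, *H2-Ob* and *Ctss* were not tested, with 4, 1 and 9 reads over the stimulated libraries. The costimulators *Cd80* and *Cd86* did not pass the filter. *Cd86* had 6 reads over the 4 stimulated libraries and *Cd80* had 19.

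Of 23 chemokines 13 rose, 1 was not called and 9 had too few reads to be tested, as had many cytokines. Over the 14 tested chemokines the median response was 8.71, or 7.50 with *Cxcl9*, *Cxcl11* and *Ccl8* at their lower bounds. *Cxcl10* was the most abundant at 3420 TPM after stimulation, followed by *Ccl5* at 445, *Cx3cl1* at 407 and *Ccl2* at 395. *Cx3cl1* had a clear level in vehicle, at 94.4 TPM, and rose by 2.27 (SE 0.08). *Cxcl12* was not called at 0.26 (SE 0.30). The chemokines not tested were *Cxcl3*, *Ccl3*, *Ccl4*, *Ccl9*, *Ccl11*, *Ccl12*, *Ccl17*, *Ccl20* and *Ccl22*, with 0 to 58 reads over the stimulated libraries, and *Ccl22* had 9 reads in vehicle and 1 after stimulation. Among 25 cytokines and growth factors, 9 were tested, of which 6 rose and 1 fell. *Csf1*, the growth factor of microglia, went from 6.17, 5.90, 6.40 and 5.64 to 8.18, 8.48, 8.16 and 8.48 log2 CPM. *Lif* rose by 3.17, and the alarmin *Il33* fell by 1.29 (SE 0.12, adjusted p = 1.34e-05). *Tslp*, another alarmin, reached 483, 1430, 118 and 1065 reads, again lowest in litters 1 and 3. The classical cytokines stayed under the filter, with 35 stimulated reads in all for *Il6*, 18 for *Tnf*, 3 for *Il1b* and 36 for *Ifnb1*, against 0 in vehicle. Against a floor of 3 reads over the vehicle libraries, the pooled reads of *Il6* were 13.4-fold higher and those of *Tnf* 6.91-fold higher. The counting error of these few stimulated reads is not included.

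The lists of reactive astrocyte genes moved by parts. Those lists were derived in other models, and 7 of the 14 A1 genes stand in the GTPase, MHC class I or complement lists as well. Of 13 pan-reactive genes, 7 rose and 1 fell, led by *Lcn2*, *Cxcl10* and the ferrireductase *Steap4* at 4.99. *Gfap*, the intermediate filament that defines reactive astrocytes, was not called: it stood at 9.57, 7.41, 10.48 and 8.40 log2 CPM in vehicle and 9.36, 8.64, 10.02 and 8.51 after stimulation (0.16, SE 0.21, adjusted p = 0.575). Its litters differed by more than its conditions. *Vim*, another intermediate filament, was not called at 0.10 (SE 0.08). Of 13 genes of the A1 list, 8 rose and 5 were not called. Complement *C3* went from 0.05, 0.41, 0.65 and 0.17 to 6.14, 6.62, 7.62 and 6.76 log2 CPM, while *Fkbp5*, *Ggta1* and *Srgn* of the same list were not called. In the A2 list 9 of 12 rose, among them *Ptx3* by 3.92 and the receptor *Cd14* by 1.13, and *Emp1* fell by 1.39. In the complement list *C4b* rose by 3.25 and reached 360 TPM, while *C1qa*, *C1qb* and *C1qc* were at 7 to 10 reads over the 4 stimulated libraries.

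Some genes of nitric oxide and itaconate metabolism began low, such as *Nos2* and *Acod1*. The 13 tested members of their list summed to 143 to 184 TPM in vehicle and 266 to 341 TPM after stimulation. *Nos2*, the inducible nitric oxide synthase, had 1, 2, 3 and 8 reads in vehicle and 64, 67, 27 and 63 after stimulation, 18.2-fold higher by pooled reads (95% interval 10.6 to 33.8). *Nos1*, the neuronal synthase, rose by 4.84 to 4.71 TPM, against 0.734 TPM for *Nos2*. *Slc7a11*, the cystine transporter, rose by 2.45 to 159 TPM, and the arginine transporter *Slc7a2* fell by 0.97.

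Genes of the resting astrocyte fell as a group. Of 30 homeostatic genes, all tested, 21 fell, 3 rose and 6 were not called, with a median of -0.72. In bulk RNA, fewer cells of a type and less RNA per cell cannot be told apart. The water channel *Aqp4* went from 9.67, 8.23, 9.92 and 9.09 to 8.17, 7.28, 8.81 and 7.52 log2 CPM, 2.43-fold lower (SE 0.10 log2 units, adjusted p = 2.53e-06). Each litter fell, although litter 3 after stimulation lay above litter 2 in vehicle. *Gja1*, which encodes connexin 43, was 2.51-fold lower, the GABA transporter *Slc6a11* fell by 1.42, and *Glul*, glutamine synthetase, fell by 0.99 (SE 0.06). *Apoe*, at 8030 TPM in vehicle, fell by 1.07. Of the 2 glutamate transporters only the fall of *Slc1a2* held under both scalings. *Slc1a2* fell by 0.70 (SE 0.11), while *Slc1a3* was called up at 0.13 (SE 0.04, adjusted p = 0.0284). The call of *Slc1a3* was lost without litter 2 or 4, without the litter terms and in the knockout libraries alone. It read -0.03 without TMM, where it was not called. *Aldh1l1*, a folate enzyme used as an astrocyte marker, rose by 0.35. *Sox9*, the astrocyte transcription factor, was not called at -0.09 (95% interval within 0.3 of 0), and was called down without TMM.

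**Figure D4:**
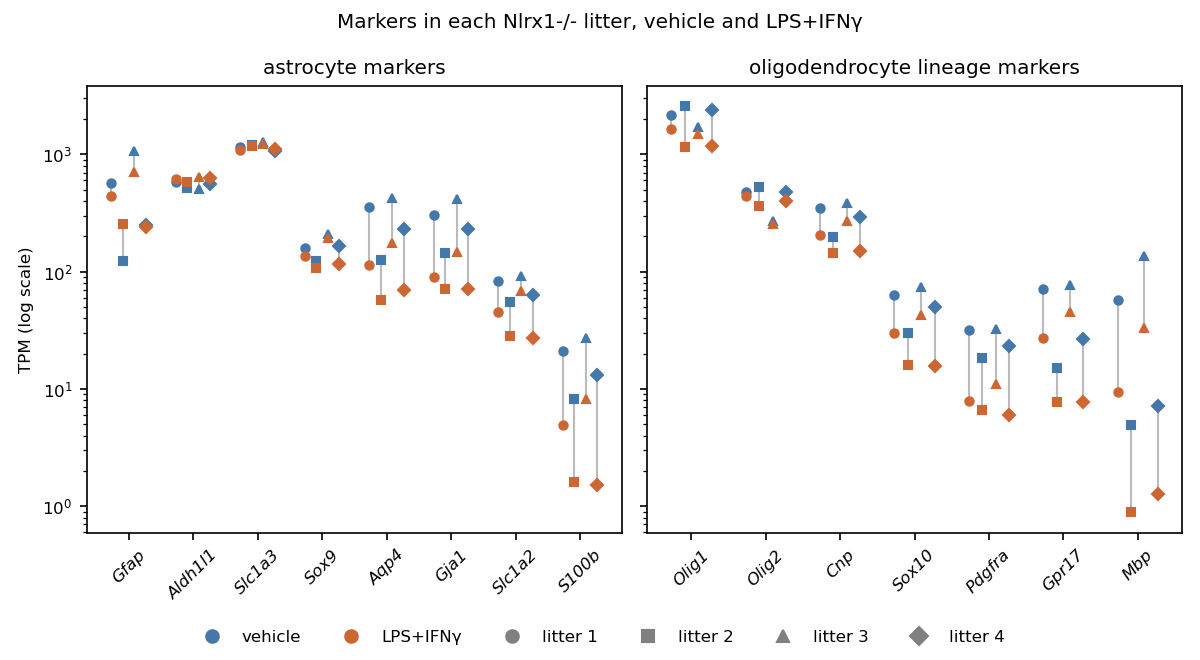
Level in TPM on a log axis of astrocyte and oligodendrocyte lineage markers in each knockout litter, with a line joining vehicle (blue) and LPS+IFNγ (orange). *Aqp4*, *Gja1*, *S100b* and *Mbp* fell in every litter, and *Aldh1l1* rose in every litter. *Slc1a3* lay at 1062 to 1281 TPM in vehicle and 1099 to 1227 after stimulation, and was lower after stimulation in litters 1 to 3. *Gfap* and *Mbp* were higher in litters 1 and 3 than in litters 2 and 4.

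Markers of the oligodendrocyte lineage fell beside them, 10 of 12 and none up. The myelin gene *Mbp* stood at 56.9, 4.94, 137 and 7.23 TPM in vehicle and at 9.42, 0.890, 32.8 and 1.27 TPM after stimulation, so the litters ranged more than 20-fold and each of them fell. Its response was -2.21 (SE 0.16, adjusted p = 1.57e-06), and the progenitor receptor *Pdgfra* fell by 1.58, while *Olig2* was not called at -0.09, and was called down at -0.25 without TMM. *Mbp* lost the call without the litter terms. The part of the oligodendrocyte lineage in the fall of genes that both lineages express, such as *Apoe*, *Glul* and *Sox8*, was not tested.

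Several Notch targets fell, while the transcription factors of astrocytes went both ways. Of 26 transcription factors 10 fell and 6 rose, with a median of -0.07, beside 24.2% and 25.3% of all genes. Without TMM 14 fell and 3 rose, and the number that rose was 2 without litter 2 and 3 without litter 4. *Hes5*, a direct target of Notch, went from 5.90, 5.13, 6.14 and 6.22 to 4.02, 2.95, 5.00 and 3.11 log2 CPM, 4.13-fold lower. The Notch ligand *Dll1* fell by 1.28 and the targets *Nrarp* and *Hey1* by 1.81 and 0.95. *Id4* and *Sox8* fell by 1.83 and 1.39, and *Emx2* rose by 1.14. In the list of Notch, BMP and TGF-beta genes 15 of 30 fell and 7 rose. Without TMM 17 fell and 4 rose, and 9 fell without the litter terms. *Bmp7* rose by 1.85 and *Bmp4*, of low level, fell by 1.60, a call lost without the litter terms.

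Most genes of mitosis fell, while most genes of DNA replication were not called. Of 30 genes of mitosis 26 fell and none rose, with a median of -0.56 and litter medians of -0.38, -0.72, -0.40 and -0.68. *Mki67* went from 9.37, 8.89, 8.88 and 9.0 to 8.80, 7.69, 8.47 and 7.93 log2 CPM, 1.75-fold lower (SE 0.13 log2 units, adjusted p = 0.000504), and cyclin B1, encoded by *Ccnb1*, fell by 0.74. Of 31 genes of DNA replication 29 were not called, *Rrm1* and *E2f8* fell, and none rose. Both calls were lost without the litter terms, and that of *E2f8* also without litter 2 or 4. The median of this list was 0.18, -0.78, 0.28 and -0.01 in litters 1 to 4, so litter 2 stood apart. Without that litter 10 of the 31 members were called up and 1 down, and without litter 3 none was called up and 5 down. Without TMM 0 were called up and 6 down. The difference between the lists was not tested.

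Cholesterol synthesis genes rose nearly without exception. Of 24 members 23 rose, with a median of 1.03, and the list summed to 2100 to 3420 TPM in vehicle and 4420 to 4620 TPM after stimulation. *Lss*, which closes the sterol ring, went from 6.24, 7.0, 6.15 and 6.51 to 7.85, 8.21, 7.71 and 8.06 log2 CPM (1.49, SE 0.09, adjusted p = 3.82e-07). *Hmgcs1*, an early enzyme of the pathway, lay between 9.58 and 10.30 in vehicle and between 10.76 and 10.82 after stimulation, so the litters drew together. Litter 2, with the highest vehicle levels of *Lss*, *Hmgcs1* and *Fdps*, had the smallest median response of the list, 0.60 against 1.04 to 1.26 in the other litters.

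Stress genes rose with a wide spread between litters. Of 30 genes of the unfolded protein and integrated stress responses 24 rose and none fell, with a median of 1.07. The chaperone gene *Hspa5* went from 8.49, 8.75, 8.39 and 8.32 to 9.82, 10.32, 9.63 and 10.26 log2 CPM. *Atf4*, the transcription factor of the integrated stress response, rose by 1.47 (SE 0.14), and its target *Asns*, asparagine synthetase, went from 4.72, 5.90, 4.53 and 5.12 to 6.90, 8.26, 5.70 and 8.20, highest in litters 2 and 4. Among called genes with a mean of at least 1 log2 CPM, at least 10 reads in the lower condition and a deposited response within 0.25 of that of the gene sums, those whose responses varied most between litters included *Atf3*, *Chac1* and *Trib3*, all known ATF4 pathway genes. *Chac1* rose from 0.87, 2.41, 1.74 and 1.92 to 3.96, 5.80, 2.28 and 5.91 log2 CPM, so litter 3 moved little. Beside them in that group stood *Exoc3l4*, *Ggt5* and *Ifit3b*, whose reads may be split with its near copy *Ifit3*.

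**Figure D5:**
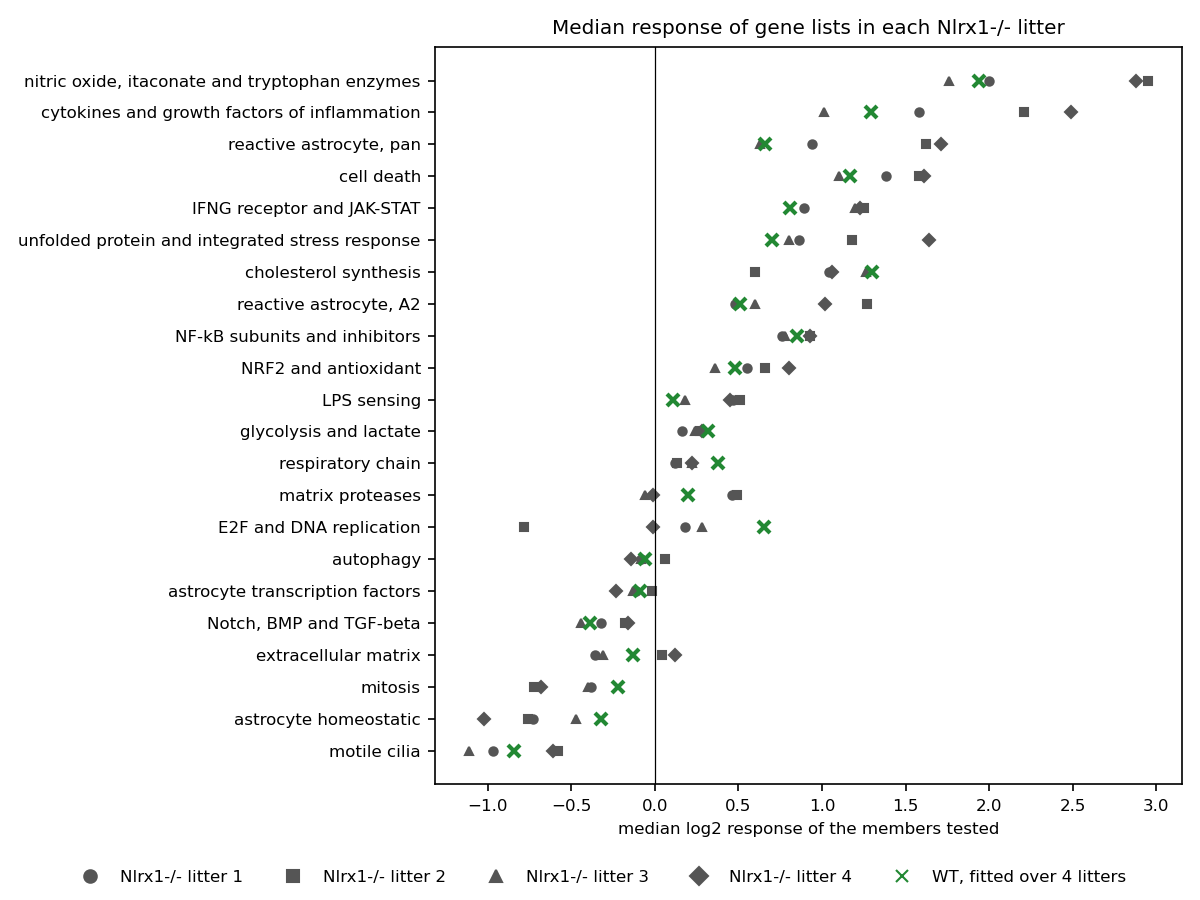
Median log2 response of the tested members of 22 gene lists (those with an absolute median under 2.6) in each knockout litter, with the fitted WT median as a cross. Litters 2 and 4 lie above litters 1 and 3 for stress, cytokine and pan-reactive genes, and litter 2 lies apart for DNA replication and cholesterol synthesis.

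Litters 2 and 4 thus differed from litters 1 and 3 in several groups at once. In vehicle they had less *Gfap* (124 and 249 TPM against 569 and 1080), less *Mbp* and less *Gpr17*, and after stimulation they had more reads of *Mx1*, *Dhx58*, *Oas1a* and *Zbp1*. Over all called genes the slope of a litter's response on the mean of the other 3 was 0.91, 1.02, 0.84 and 1.11 for litters 1 to 4. Across 12309 genes of at least 1 log2 CPM the responses of litter pairs had a Pearson r of 0.857 to 0.924, a value across genes, which are not independent. The part of the marker levels in the size of a litter's response was not tested.

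Genes of mitochondria and glycolysis changed little and depend on the scaling. Of 45 respiratory chain genes 23 rose and 1 fell, with a median of 0.18, and 13 rose and 5 fell without TMM. Their summed level was 23400 to 25000 TPM in vehicle and 23600 to 24700 TPM after stimulation. Of 23 glycolysis genes 14 rose and 2 fell, or 8 and 3 without TMM. Larger changes within that list were those of *Pfkp* (1.88), *Hk2* (1.78) and *Hk1* (0.84) at the head of the pathway, while lactate dehydrogenase B, *Ldhb*, fell by 0.61. In the autophagy list 5 of 26 rose and 8 fell, a share called near the 49.4% over all genes, or 1 and 14 without TMM. Without litter 2 or 4 the number that rose was 3, and without litter 1 the number that fell was 5. The largest called responses in each direction were those of *Map1lc3b* at -0.63 and *Sqstm1* at 0.49, the latter 0.30 and not called without litter 2, and not called without litter 4 or TMM.

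Cell death genes and antioxidant genes mostly rose. Of 24 cell death genes that passed the filter 21 rose and none fell. Some, such as *Casp4* and *Zbp1* with 8 and 2 vehicle reads in all, passed only through their stimulated libraries. *Casp1*, the inflammatory caspase, went from -0.51, -1.20, -0.19 and -0.77 to 5.62, 6.10, 5.63 and 5.82 log2 CPM, and *Gsdmd*, the pore it releases, rose by 4.20. *Mlkl*, which executes necroptosis, rose by 6.89, while its activator *Ripk3* was not called at 0.39 (SE 0.59), and *Nlrp3* had 0 reads in all 8 libraries. Of 21 NRF2 and antioxidant genes 15 rose and 4 fell. *Hmox1* rose by 1.16 and *Gclm* by 1.05, and the metallothioneins *Mt1* and *Mt2*, at 6000 and 3880 TPM in vehicle, fell by 1.27 and 0.69.

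Motile cilia genes fell and matrix genes went both ways. Of 35 cilia genes 22 fell and none rose, with a median of -0.90. The regulators *Foxj1* and *Rfx3* fell by 0.61 (SE 0.05) and 0.76 (SE 0.06), and the axonemal genes *Ak7*, *Rsph1* and *Hydin*, at 0.395 to 7.02 TPM in vehicle, fell by 0.83 to 1.14. Of 31 matrix genes 14 fell and 11 rose, or 15 and 8 without TMM, and 8 fell without the litter terms. Tenascin C, *Tnc*, went from 6.64, 8.64, 6.56 and 7.02 to 9.10, 10.71, 8.38 and 10.42 log2 CPM, and the fibrillins *Fbn1* and *Fbn2* rose by 0.85 and 1.33. The perineuronal net genes *Tnr* and *Hapln1* fell by 1.54 and 1.84, and *Lama2* and *Col4a1* by 1.13 and 0.68. Among inhibitors of metalloproteinases *Timp1* rose by 2.16 while *Timp4* fell by 1.99.

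Where the knockout response departs from that of WT litters was asked gene by gene. By edgeR 0 of 16066 genes were called for a difference between the responses (0% of those tested), 2470 genes (15.4%) had an unadjusted p below 0.05, and the lowest adjusted p was 0.217. DESeq2 called 111 genes with a higher and 185 with a lower response in the knockout. Without knockout litter 3, edgeR called 125 and 192. Among lists, the share of members with an unadjusted p below 0.05 was far above 15.4% for DNA replication (29 of 31) and mitosis (24 of 30), and above it for cholesterol synthesis (15 of 24), homeostatic genes (17 of 30), respiratory chain (24 of 45) and stress genes (15 of 30). The median response of DNA replication genes was -0.04 in knockout and 0.65 in WT litters, and that of mitosis genes was -0.56 and -0.22. Members of such a list move together within a litter, so these counts are not independent. Homeostatic genes had medians of -0.72 and -0.32, cholesterol genes 1.03 and 1.3, and stress genes 1.07 and 0.70. Interferon-inducible GTPases had 9.10 and 9.08, with 4 of 17 members at an unadjusted p below 0.05. Among the named genes *Mpped1* had -3.14 and -1.86 (unadjusted p = 0.000467, adjusted p = 0.217), *Gpr37* -3.02 and -1.28, and *C3* 6.51 and 7.77 (unadjusted p = 0.000666, adjusted p = 0.217).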

How the data were processed

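RNA-seq libraries of 4 *Nlrx1*-/- and 4 WT litters, each with vehicle and LPS+IFNγ, were grouped by their labels. Libraries were poly-A selected, unstranded and paired-end. Per the labels and the methods of the study, the authors quantified transcripts with Salmon 1.7.0 on the GRCm39 RefSeq transcriptome and deposited expected counts, TPM and effective lengths per transcript, and log2 CPM per gene (tximport, TMM, limma 3.58.1). The deposited log2 values served as an alternative and as a check of gene sums. A deposited CPM table was not used here.

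Expected counts were summed per gene symbol over the 106440 of 129698 transcripts with a matching entry in the RefSeq table, which held 96.7% to 97.3% of reads, and the sums were rounded to whole numbers. Salmon's TPM were summed per gene as levels per length. The test was edgeR 4.0.16 under R 4.3.3 in quasi-likelihood mode with TMM factors and offsets for transcript length, after filterByExpr (minimum count 10), over all 16 libraries, with litters as blocks within genotype. Litters pair the cultures by design. Within knockout litters the deviations of the pair had a Pearson r of 0.237 to 0.521, and pairs from different litters had -0.546 to 0.26. The stimulated library of litter 4 had 0.257 with the vehicle library of litter 2, against 0.237 with its own. Calls are Benjamini-Hochberg adjusted p below 0.05. Log2 CPM per library used a prior count of 0.5. Intervals of 95% are exact for read ratios and come from the SE for log2 responses. Those of read ratios cover counting error only, and ratios to a floor leave out the counting error of the stimulated reads. DESeq2 1.42.0 and limma-voom were alternatives. The steps were tested on simulated data with 200 changed genes of 16066, of which edgeR recovered 160, with 13 false calls. Far fewer genes changed there than in the data, in equal numbers up and down. The simulation therefore could not test the scaling of the libraries.

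The members, the 30 gene lists and the 7 marker lists were chosen with earlier results of these data known. Named genes are the 12 largest called responses in each direction with a mean of at least 1 log2 CPM, at least 10 reads in the lower condition, no overlap of the conditions and a deposited response within 0.25; for each list the 3 largest called members, up to 2 against its direction and up to 2 with an interval within 0.3 of 0; fixed anchors of the pathways; and, under the conditions of the first rule other than no overlap, the 6 called genes whose responses varied most between litters. Other genes were named after their values were seen, as examples of their list, and some genes that the rule takes are not reported here. Promoter windows were read from GRCm39 with GENCODE M39, which may differ from the annotation of the authors. Python 3.11.15, numpy 2.4.6, pandas 2.3.3, scipy 1.17.1 and matplotlib 3.10.9 were used.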

Additional observations from a re-analysis of the deposited data

Results flagged for a closer look

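Of 281 results, 17 had 1 litter far from the other 3 by Dixon's criterion, where chance alone gives about 1 in 20 (14). Several rest on few vehicle reads. The log2 response of *H2-Aa* was 11.39 in litter 3 against 14.55 to 14.75 in the others, that of *Iigp1* 10.87 in litter 4 against 16.67 to 16.97, that of *Ciita* 9.0 in litter 1 against 13.30 to 13.90 and that of *Mlkl* 12.90 in litter 4 against 5.82 to 6.50. The 5 vehicle reads of *H2-Aa* were all in litter 3, and the 13 of *Ciita* all in litter 1.

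Litter 3 moved less in *Trib3* (1.88 against 4.86 to 5.05) and *Bmp3* (-1.88 against -3.57 to -3.37). Litter 4 moved further in *Ryr3* (-4.79 against -2.41 to -2.30), *Gpr153* (-3.36 against -2.38 to -2.34), *Hk2* (2.47 against 1.48 to 1.59), *Bambi* (1.86 against 0.78 to 0.86) and *Col4a1* (-0.77 against -0.66 to -0.64). Litter 2 stood apart in *Pola1* (-0.54 against 0.09 to 0.16), *Psme1* (3.44 against 3.13 to 3.17), *Lss* (1.21 against 1.55 to 1.61), *Cox5a* (0.45 against 0.66 to 0.70) and *Ikbkb* (0.36 against 0.04 to 0.06). The median of the IFNγ and JAK-STAT list was 0.89 in litter 1 against 1.20 to 1.25.

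*E2f8*, a repressor of the E2F family, went down in all 4 knockout litters (mean -0.42) and up in all 4 WT litters. The knockout litters 1 to 4 had -0.08, -1.11, -0.04 and -0.45, so litters 1 and 3 hardly moved. Without litter 2 the knockout response was -0.19 and was not called (adjusted p = 0.107 from edgeR). The difference between the genotypes, over all litters, had an unadjusted p of 0.0181 and an adjusted p of 0.243 from edgeR.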

How the results depend on the processing

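The counts of genes called up and down in the knockout litters kept within 1.5 times of the main counts under DESeq2, limma-voom, the deposited log2 values, DESeq2 size factors, no length offsets, no filter, the length trend, the knockout libraries alone and a threshold of 0.01. With no replicate block the counts were 3366 up and 3058 down, and with 1 knockout litter left out 3484 to 3889 up and 3146 to 3680 down. Plain library sizes, tried after the data were seen, gave 2659 up and 5886 down and turned *Slc1a3* to -0.03. The difference between genotypes had 0 calls in the main test, 296 with DESeq2, 1 with no filter and 0 to 317 with 1 litter left out (317 without knockout litter 3, 1 without WT litter 1). Among 224 called genes of those examined, 194 kept call and sign in every setting. Pairing by litter mattered for 19 calls lost with no replicate block, among them *Mbp*, *Nlrx1*, *Bmp4*, *Slc1a2*, *Sox2*, *Kcnj10*, *Rrm1* and *E2f8*. *Ifngr2* lost its call under DESeq2, the deposited values, no filter, no block, the knockout libraries alone and 3 of 4 omissions of a litter. The causes were not tested.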

Other observations

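Adhesion molecules and ligands of T cells rose beside antigen presentation. Of 8 tested members of the T cell ligand list 7 were called up by edgeR and none down. The integrin ligand *Icam1* went from 2.77, 3.14, 2.98 and 3.02 to 8.21, 8.69, 7.98 and 8.43 log2 CPM, and *Vcam1* rose by 2.70 (SE 0.20) to 323 TPM. Galectin 9, encoded by *Lgals9*, rose by 6.42, and the costimulatory ligand *Icosl* by 1.81. The complement list had 8 of 13 tested members up and 1 down. The proteases of the classical pathway, *C1ra* and *C1s1*, rose by 6.40 and 5.84, while the membrane inhibitor *Cd59a* fell by 0.89. In the list of nitric oxide, itaconate and tryptophan enzymes 10 of 13 tested members rose and 1 fell. Among these, *Acod1*, with 1 vehicle read, passed the filter only through its stimulated libraries.

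Matrix proteases and their inhibitors went both ways, with 7 of 17 up and 6 down. *Mmp19* rose by 2.67 and *Adamts1* by 1.45, while the aggrecanase *Adamts5* fell by 2.24. Among markers of other cells, 4 of 8 tested neuronal genes rose and 3 fell, and 3 of 5 endothelial and mural genes rose and 1 fell. Of 8 fibroblast genes 1 rose and 3 fell, and of 7 ependymal genes 1 rose and 4 fell. Over all genes tested 25.3% rose and 24.2% fell, and lists this short cannot show a shift of a cell type. The neuronal tubulin *Tubb3* lay at 5.62 to 14.5 TPM in vehicle and at 57.3 to 82.8 TPM after stimulation, without overlap. Of the microglial list *P2ry12* was called up at 2.26 (SE 0.71, adjusted p = 0.0218 from edgeR) from 0.255 to 1.10 TPM, a call lost without litter 2 (adjusted p = 0.0581) and without litter 4 (1.61, adjusted p = 0.071).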
